A study of Mus musculus with 18 samples.

Results

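LSK sorted from bone marrow of diseased NZBW/F1 mice (F1-L) were compared with LSK of older C57BL/6 mice (B6-O) across all expressed genes. The comparison takes 6 of the 18 samples of the series, 3 of each group, chosen by their labels and by no measured value. F1-L are female NZB/W F1 hybrids, offspring of NZB and NZW parents, with lupus defined in the study by proteinuria. B6-O are female wild-type C57BL/6 mice labelled normal, and mice of both groups were 28 to 36 weeks old. No agent was given to either group in the labels. The other LSK libraries come from NZBW/F1 mice before disease (F1-P) and young C57BL/6 mice (B6-Y), both 12 weeks old, with 3 samples each, and are used here only to set the strain difference before disease beside each result. Every F1-L sample differs from every B6-O sample in strain as well as in disease, so within this comparison strain and disease cannot be told apart. The labels do not say that the 3 samples of a group came from separate mice, and the p-values measure the spread between these samples, which may be technical. The question it addresses is how the hematopoietic progenitors of mice with lupus differ from those of control mice of the same age.

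LSK (Lin−Sca-1+c-Kit+) is the bone marrow gate that holds hematopoietic stem cells and multipotent progenitors, from which all blood lineages arise. c-Kit is the receptor of stem cell factor, and Sca-1, the product of Ly6a, is a surface protein that inflammatory signals such as interferons can raise. NZBW/F1 females develop antibodies to nuclear antigens and immune complex nephritis, and both parental strains carry alleles that differ from the C57BL/6 reference at the major histocompatibility complex, the NK receptor cluster and the interferon-inducible Ifi200 cluster. The sort excluded cells with CD11b, Gr-1, Ter119, B220 or CD16/32 on their surface. Cells that lack all of these, such as T cells, were removed only by the gates on Sca-1 and c-Kit. The source of reads from genes of other cell types was not tested.

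RNA sequencing gave 24857163 to 28493747 reads on genes in each of the 6 libraries. Immunoglobulin genes took 16.8% to 25.6% of these reads in F1-L and 0.301% to 4.76% in B6-O, where the highest share was that of B6-O replicate 3. Without them 18505461 to 20928715 reads were left in F1-L and 26325729 to 27136951 in B6-O, so low genes were measured less precisely in F1-L. Across tested genes, Pearson's r between libraries was 0.970 to 0.982 within F1-L and 0.989 between B6-O replicates 1 and 2. It was 0.937 to 0.950 between B6-O replicate 3 and the other B6-O libraries, and 0.872 to 0.908 between groups. B6-O replicate 3 thus stood apart from the rest of its group, and list counts are also given without it where they move. In bulk samples a larger number of cells of a type and more RNA per cell cannot be told apart.

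The groups differed at many genes, and more of these were higher than lower in the lupus mice. Of 14381 genes tested, 1667 (11.6%) passed limma with a fold above 1.5 at an adjusted p no higher than 0.05, with 1128 of them higher (7.84%) and 539 lower (3.75%) in F1-L. An unadjusted p below 0.05 was seen at 3950 genes (27.5%). Values are the authors' scaled CPM (read counts divided by a scaled library size), and fold changes are on the log2(value + 1) scale, which understates the change of low genes. The median log2 fold change was −0.03 over all tested genes and its size was 1.37 in the median over genes past the thresholds. A fold of at least 4 was seen in 466 of these genes, of which 422 were higher, and a fold of at least 16 in 129, of which 122 were higher. The groups did not overlap at 5381 genes, 37.4% of those tested. Immunoglobulin genes made up 146 of the calls, 144 of them higher, and 1521 calls lay on other genes. The count rose to 2285 (1585 higher and 700 lower) without B6-O replicate 3. It was 582, 594 and 448 without F1-L replicate 1, 2 and 3, and 806 and 799 without B6-O replicate 1 and 2. Testing asked for a value of 1 or more in at least 3 samples. A gene below 1 in every library of 1 group is therefore not tested without a library of the other group.

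**Figure D1:**
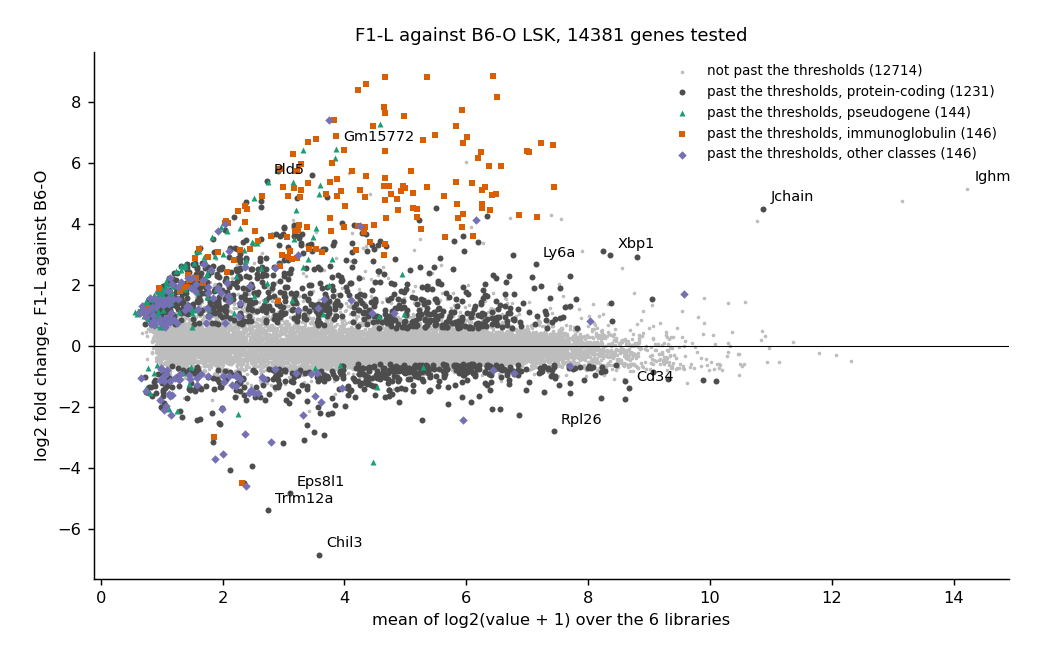
Each point is a gene tested, with the mean of log2(value + 1) over the 6 libraries on the x axis and the log2 fold change of F1-L against B6-O on the y axis. Grey points did not pass the thresholds, and the 146 immunoglobulin genes and 144 pseudogenes past them (squares and triangles) lie mostly above 0.

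Several protein-coding genes were read in F1-L and hardly at all in B6-O, and among the 10 with the largest rise were genes of the major histocompatibility complex, NK receptors and Ifi202b. Pld5, a member of the phospholipase D family on chromosome 1 (175962306 to 176275312, GRCm38), was at 38, 46 and 42.6 in F1-L and at 0, 0 and 0.0334 in B6-O, a log2 fold change of 5.41 (SE 0.17, limma adjusted p = 1.07e-05). Ifi202b, an interferon-inducible DNA-binding protein known for its lack of expression in C57BL/6, lies on chromosome 1 (173962568 to 173982744). It was at 27, 19.9 and 32.8 in F1-L and at 0, 0 and 0.0334 in B6-O (log2 fold change 4.74, SE 0.22, limma adjusted p = 5.08e-05). In both genes the highest B6-O library held 1 read, and the rule that named them asked for groups that do not overlap. The sialyltransferase gene St6galnac2 was at 60.7 to 86.4 in F1-L and 1.00 to 2.02 in B6-O (log2 fold change 4.89). The T-type calcium channel gene Cacna1h was at 169, 259 and 234 in F1-L and 6.04, 2.91 and 29.2 in B6-O (log2 fold change 4.54), with B6-O replicate 3 the highest of its group. Others were Jchain, described with the plasma cell genes, the class I genes H2-Q2 and Gm8909, and the Ly49 receptor genes Klra1 and Klra4, whose near-identical relatives make their individual values uncertain.

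Among the genes that fell furthest, Chil3 stood first. Chil3 encodes a chitinase-like protein of myeloid cells and lies on chromosome 3 (106147554 to 106167564). Its values were 0.0401, 0.239 and 0.0898 in F1-L and 99.3, 53 and 380 in B6-O, a log2 fold change of −6.83 (SE 0.64, limma adjusted p = 0.000967). The other 15 late neutrophil granule genes did not go with it, and 0 of them passed the thresholds. With any 1 B6-O library left out Chil3 did not pass the filter on low values, as all its F1-L values were below 1. Trim12a, a member of the Trim5 cluster of antiviral ubiquitin ligases (chromosome 7, 104299894 to 104315466), was at 0.0801, 0 and 0.0449 in F1-L and 38.7, 37 and 52.3 in B6-O (log2 fold change −5.37, SE 0.20, limma adjusted p = 1.81e-05). Eps8l1, a regulator of actin, was at 0.561, 0.755 and 0.539 in F1-L and 45.9, 48.3 and 39.5 in B6-O (log2 fold change −4.81). The rule that named these 3 genes asked for groups that do not overlap. The netrin receptor gene Unc5a (log2 fold change −3.91), the small GTPase gene Rab6b (−3.16), Scube3 (−3.09), Tceanc2 (−2.90) and the homeobox gene Pbx4 (−2.81) fell by less, and so did Gm8113 (−4.06) and the alpha globin gene Hba-a2 (−4.47). The near-identical copy of Hba-a2, Hba-a1, did not pass (log2 fold change 0.16). Their summed value was 42.9 ± 6.48 in F1-L and 87.3 ± 90.3 in B6-O (SD, n = 3). Of the 20 genes with the largest rises and falls, 19 kept their call in every alternative that tested them, and Jchain did not.

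Reads were aligned to the C57BL/6 genome, and a read from an NZB or NZW allele can match a copy of its gene better than the gene itself. To see where this could matter, each transcript was divided into 75-base tiles, and a tile was counted as shared when it matched another gene with at most 3 mismatches. Among the 10052 genes with no shared tile, 10.2% passed the thresholds, close to the 11.6% over all genes. Among the 230 genes with over 90% of tiles shared, 49.1% passed, 98 higher and 15 lower. Of these 230, 59 passed the filter on low values through F1-L alone and 11 through B6-O alone, as did 185 and 77 of the 10052, and such genes had to differ. They account for 66 of the 113 calls, so the share is a description of the genes tested. Of pseudogenes, 144 of 349 (41.3%) were past the thresholds and 128 of these higher in F1-L, against 1231 of 12606 protein-coding genes (9.77%). Many of these pseudogenes also passed the filter through 1 group alone and had to differ. Such genes account for 45 of the 60 calls among the 127 pseudogenes with over 90% of tiles shared. They account for 38 of the 54 calls among the 104 with over 50% to 90% shared, so the pseudogene share too describes the genes tested. The 1030 genes past the thresholds with no shared tile have no such copy among the annotated transcripts. Mismatches to the reference can also lower the reads of a gene without a copy, and their part in the falls was not tested.

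In some pairs a gene and its copy had fold changes of opposite sign, but in many of them only the copy passed the thresholds. Rplp0 was at means of 1044 in F1-L and 2054 in B6-O and did not pass (log2 fold change −0.93). Its copy Gm8730, at 74.9 in F1-L and 0.971 in B6-O, did pass (log2 fold change 5.28). The pairs that follow are examples. Rpl26, a ribosomal protein gene, was at 54.7, 67.2 and 74.4 in F1-L and 358, 331 and 792 in B6-O (log2 fold change −2.79, SE 0.33, limma adjusted p = 0.00272). The processed pseudogene Gm15772 was at 114, 148 and 150 in F1-L and 0.342, 0.474 and 0.836 in B6-O (log2 fold change 6.48, SE 0.20, limma adjusted p = 1.07e-05). Their summed value was still lower in F1-L, at 203 ± 29.9 against 494 ± 259 (SD, n = 3), with B6-O replicate 3 the highest. A different pattern was seen for Hmga1, which encodes a chromatin protein of the high mobility group, and Hmga1b. Hmga1 was at 56.2, 64 and 72 in F1-L and 86, 91.9 and 102 in B6-O and did not pass the fold threshold, whereas Hmga1b was at 25.8, 32 and 32.2 against 0.840, 1.23 and 1.24 (log2 fold change 3.88). The sum of this pair was 94.0 ± 11.2 in F1-L and 94.5 ± 8.40 in B6-O (SD, n = 3). Rps2, another ribosomal protein gene, fell (log2 fold change −1.09, limma adjusted p = 0.0399), a call lost without any 1 library other than B6-O replicate 3. Its copy Rps2-ps13 rose from 0.0316 to 0.134 in B6-O to 80.7 to 99.4 in F1-L. The sum of this pair was still lower in F1-L, at 529 ± 54.4 against 958 ± 325 (SD, n = 3). Ndufs5, a subunit gene of respiratory complex I, fell (−2.52) while its pseudogene BC002163 rose (2.96), and their sum was 9.92 ± 1.70 in F1-L and 9.15 ± 4.81 in B6-O (SD, n = 3).

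The sequences show how alike a gene and its copy are. Coding stretches within 1 exon of 3 such genes are printed with the matching stretch of the copy, 5′ to 3′ on the plus strand of GRCm38 from the GENCODE M21 transcripts, with bases that differ in capitals. Rpl26 lies at chr11:68902275-68902424 (exon 2), Gm15772 at chr5:3236431-3236580, Rps2 at chr17:24720276-24720425 (exon 1), Rps2-ps13 at chrX:52898588-52898737, Hmga1 at chr17:27559569-27559703 (exon 2) and Hmga1b at chr11:120762889-120763023.
Rpl26: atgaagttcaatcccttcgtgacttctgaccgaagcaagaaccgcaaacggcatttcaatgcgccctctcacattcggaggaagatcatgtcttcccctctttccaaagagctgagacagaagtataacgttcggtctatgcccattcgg
Gm15772: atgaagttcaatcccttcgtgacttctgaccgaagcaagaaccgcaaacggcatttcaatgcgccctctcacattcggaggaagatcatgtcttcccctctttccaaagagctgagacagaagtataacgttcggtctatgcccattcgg
Rps2: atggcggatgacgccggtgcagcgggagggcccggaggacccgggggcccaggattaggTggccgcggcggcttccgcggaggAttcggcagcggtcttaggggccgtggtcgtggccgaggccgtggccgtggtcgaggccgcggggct
Rps2-ps13: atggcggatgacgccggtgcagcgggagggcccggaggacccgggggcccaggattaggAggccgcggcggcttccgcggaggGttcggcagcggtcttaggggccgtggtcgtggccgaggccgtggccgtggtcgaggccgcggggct
Hmga1: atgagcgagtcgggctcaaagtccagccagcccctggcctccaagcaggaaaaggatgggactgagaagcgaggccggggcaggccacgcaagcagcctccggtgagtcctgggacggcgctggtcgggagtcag
Hmga1b: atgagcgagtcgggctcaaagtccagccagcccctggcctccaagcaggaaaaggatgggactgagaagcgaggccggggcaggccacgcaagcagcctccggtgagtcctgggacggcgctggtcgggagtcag
No base differs in the 150 bases of Rpl26 or the 135 bases of Hmga1, and 2 differ in the 150 bases of Rps2. A 75-base read from these stretches can thus be assigned by few or no reference bases.

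**Figure D2:**
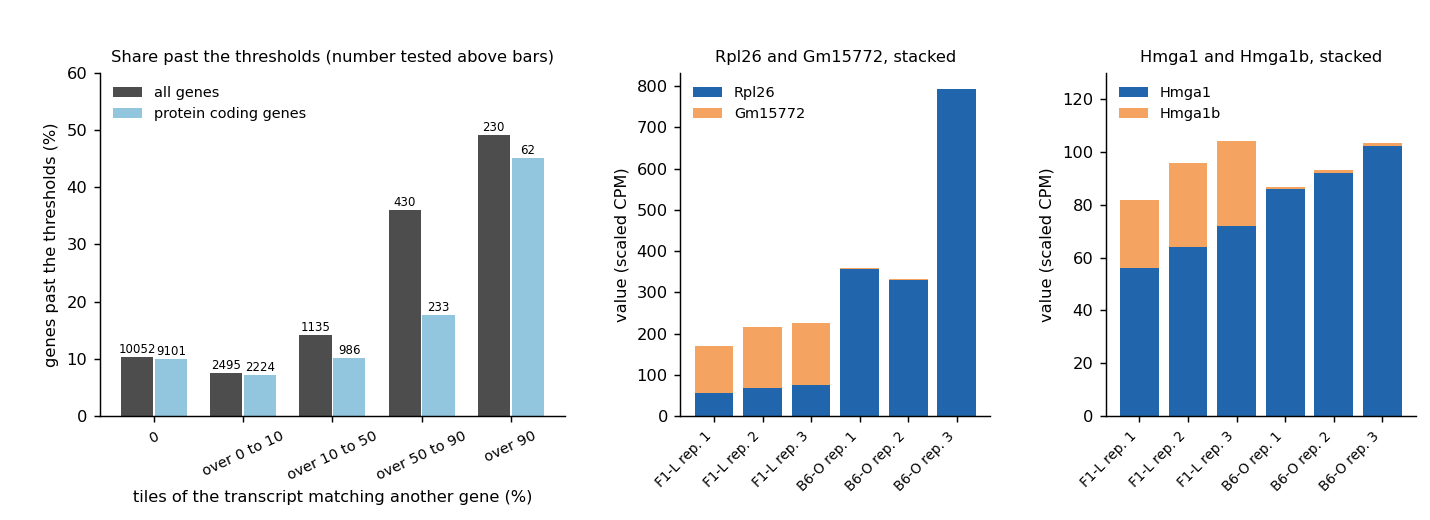
The left panel gives the percentage of tested genes past the thresholds by the percentage of 75-base tiles that match another gene, for all genes (dark bars) and protein-coding genes (light bars), with the number tested above each bar. The other panels stack the values (scaled CPM) of Rpl26 with Gm15772 and of Hmga1 with Hmga1b in each library, where the copies (orange) reach 25.8 or more in the 3 F1-L libraries and at most 1.24 in B6-O.

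Genes read in 1 group only were counted next, as those at 1 or more in each library of a group and at 3 or fewer reads in each library of the other. There were 98, 79 in F1-L and 19 in B6-O, and 54 and 11 of these had the same pattern in the 12-week mice. Of the 79 read in F1-L only, 40 were pseudogenes, 24 protein-coding and 9 immunoglobulin genes. The 5 with the highest means were the immunoglobulin genes Gm20730, Ighv1-86, Ighv1-70 and Igkv1-131 and the long noncoding RNA BC018473 on chromosome 11 (116752167 to 116759373), which was at 216, 159 and 156 in F1-L and 0.0622, 0 and 0.0334 in B6-O. Igkv1-131 had 0 reads in every B6-O library and was at 74.9 to 81.4 in F1-L, at least 819-fold higher against a floor of 3 reads per library. H2-Ea-ps, the E alpha chain gene of class II, is annotated as a pseudogene because C57BL/6 carries a promoter deletion. It was at 45.2, 61.1 and 59.2 in F1-L with 0 reads in B6-O, at least 574-fold higher against the same floor. In B6-O only, the highest means were those of Ighv9-3, Trim12a, Hba-a2, the long noncoding RNA Gm34680 and the pseudogene Gm4956. Hba-a2 has 95% of its tiles shared, and its copy Hba-a1 was read in both groups, at means of 42.9 in F1-L and 58.0 in B6-O. Deleted genes, silent alleles and reads that do not map to the reference cannot be told apart in such counts.

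Calls were counted at polymorphic gene clusters, whose limits were set after the values were seen. Outside immunoglobulin genes, the megabase with the most calls lay elsewhere (chromosome 7, 45000001 to 46000000), with 14 of 56 tested genes (25%). In the NK receptor cluster (chromosome 6, 128000001 to 131000000), 25 of 47 tested genes (53.2%) passed the thresholds, all 25 were higher in F1-L, and 24 were also past the thresholds at 12 weeks. The major histocompatibility complex (chromosome 17, 33000001 to 37000000) held 37 of 155 (23.9%), 26 higher and 11 lower, of which 33 were also called at 12 weeks. Among class I genes, which present peptides to CD8 T cells, H2-Q1, H2-Q2, H2-Q10, H2-T3 and H2-T24 rose and H2-Q7 fell (log2 fold change −1.49), while H2-K1, at 1061 to 1289 in F1-L and 1406 to 2466 in B6-O, did not pass (limma adjusted p = 0.267). Among class II genes the peptide loading genes H2-DMa (log2 fold change −0.89), H2-DMb1 (−2.19) and H2-Ob (−1.65) fell, and H2-Ea-ps rose. Without B6-O replicate 3, 7 class II genes were higher and 3 lower, and of 24 class I genes 8 were higher and 1 lower. With 1 of the other libraries left out, 2 or 3 class II genes and 4 to 6 class I genes passed. The Ifi200 cluster (chromosome 1, 173000001 to 174000000) held 6 of 16 (37.5%), with Ifi202b, Ifi211, Ifi214, Ifi204 and Ifi203-ps higher and Mndal lower. In the Trim cluster (chromosome 7, 104000001 to 105000000) 7 of 12 passed (58.3%), with Trim12a, Trim5, Trim30d, Trim34a and Olfm5 lower and Trim34b and Gm5900 higher. These shares stand beside 11.6% over all genes. Genes below 1 in every library of 1 group, such as Klra1, Klra4, H2-Q1, Ifi202b and Trim12a, passed the filter on low values through the other group and had to differ. The shares are thus a description of the genes tested. Among 17 tested genes with known alleles between inbred strains 11 rose. Without B6-O replicate 1 or 2, 10 rose. Without F1-L replicate 1, 2 and 3 it was 2, 3 and 2, as members below 1 in B6-O, such as Ifi202b and H2-Ea-ps, were then not tested. Nnt, deleted in part in a common C57BL/6 substrain, was at 1.98 to 2.35 in F1-L and 1.14 to 2.43 in B6-O. Members of these families have near-identical relatives, and the value of a single gene is uncertain.

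The LSK label was checked against 32 stem and progenitor genes. All 32 passed the filter on low values, and 2 rose and 4 fell (beside 7.84% higher and 3.75% lower over all genes). Those shares also stand beside each later list count from all 6 libraries. List counts with a library left out belong beside all-gene counts, which moved as well. These were 1585 higher and 700 lower without B6-O replicate 3, and 448 to 806 in all without 1 of the others. Beside −0.03 over all genes, the median log2 fold change was −0.31 in the 32 genes. Their summed value was 2729 to 3897 in F1-L and 4044 to 5326 in B6-O. Kit, the gate antigen c-Kit, was at 340, 442 and 386 in F1-L and 650, 657 and 296 in B6-O, so the groups overlapped at B6-O replicate 3 (log2 fold change −0.37, limma adjusted p = 0.490). Ly6a, which encodes the other gate antigen Sca-1, was at 293, 344 and 451 in F1-L and 35.5, 40.7 and 113 in B6-O (log2 fold change 2.68, SE 0.42, limma adjusted p = 0.00813) and thus higher in every F1-L library. Cd34, a sialomucin of progenitors, was at 257, 214 and 295 in F1-L and 719, 697 and 567 in B6-O and fell by 1.37 on the log2 scale (SE 0.19, limma adjusted p = 0.00435). The other falls were those of the stem cell transcription factors Hlf (log2 fold change −1.20, limma adjusted p = 0.0241), Meis1 (−0.96, limma adjusted p = 0.0403) and Lmo2 (−0.83, limma adjusted p = 0.0436). Flt3, the receptor that marks multipotent progenitors, was at 276, 137 and 353 against 626, 506 and 388 and did not pass (limma adjusted p = 0.110). The netrin and repulsive guidance receptor gene Neo1 rose (log2 fold change 1.30). Cd34 and Ly6a kept their calls in every alternative, whereas Hlf and Lmo2 lost theirs without any 1 library other than B6-O replicate 3. Meis1 lost its call without any 1 library other than F1-L replicate 2, and Neo1 without any other than B6-O replicate 2. Without B6-O replicate 3, 2 rose and 5 fell, and with 1 of the other libraries left out 2 or 3 of the 32 passed.

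Stem cell genes stood beside other highly expressed genes that fell. Adgrg1, an adhesion receptor of stem cells, was at 565, 930 and 760 in F1-L and 1700, 1785 and 1452 in B6-O (log2 fold change −1.15, limma adjusted p = 0.0342). The histone variant gene H2afy was at 531 to 762 in F1-L and 1382 to 1390 in B6-O (log2 fold change −1.10, limma adjusted p = 0.0208), and both genes lost their call without any 1 library other than B6-O replicate 3. Dntt, the terminal transferase of early lymphoid progenitors, was at 197, 244 and 197 in F1-L and 588, 894 and 681 in B6-O (log2 fold change −1.74, SE 0.20, limma adjusted p = 0.00246). The nuclear RNA Malat1 was at 1338 to 1407 in F1-L and 279 to 571 in B6-O, a log2 fold change of 1.71 that did not keep its call without any 1 of the F1-L libraries.

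Genes of antibody-secreting cells had the highest median of the 34 lists. Of 19 plasma cell genes 17 rose and 0 fell, with a median log2 fold change of 2.93, and their summed value was 11970 to 16602 in F1-L and 656 to 3365 in B6-O, highest in B6-O replicate 3. Jchain, which joins chains of polymeric IgM and IgA, was at 8286, 8063 and 10851 in F1-L and 247, 116 and 2098 in B6-O (log2 fold change 4.51, SE 0.98, limma adjusted p = 0.0278). Its groups were separate, which the rule naming the largest rises asked for. The call was lost without any 1 library other than B6-O replicate 3 and by DESeq2 and edgeR's quasi-likelihood test. Xbp1, the transcription factor of the secretory program, was at 770, 937 and 1108 in F1-L and 78.7, 86.3 and 225 in B6-O (log2 fold change 3.00, SE 0.40, limma adjusted p = 0.00402). Prdm1, which drives plasma cell differentiation, rose by 3.69 (limma adjusted p = 0.00149) and the surface proteoglycan gene Sdc1 by 2.23 (limma adjusted p = 0.00188) on the log2 scale. All 19 genes rose without B6-O replicate 3, and 7 to 11 passed with 1 of the other libraries left out.

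The products these cells secrete and the machinery they use moved with them in part. Ighm, the heavy chain of IgM, was at 84614, 121350 and 147460 in F1-L and 1791, 1004 and 17945 in B6-O, and Igkc, the kappa light chain, was at 36060 to 63935 and 495 to 12642. The groups were separate at both genes, as they were in this direction at 17.5% of all tested genes. Neither gene passed (limma adjusted p = 0.0847 and 0.0629). Ighm did pass in 6 of 20 alternatives and Igkc in 5 of 20, among them DESeq2, edgeR's likelihood ratio test and limma without B6-O replicate 3. Of 11 constant genes tested, Ighg3 and Iglc2 rose, 6 rose without B6-O replicate 3, and 0 passed with 1 of the other libraries left out. Of 24 genes of protein folding and secretion in the endoplasmic reticulum, 10 rose and 0 fell, with a median log2 fold change of 0.97, and 18 rose without B6-O replicate 3. With 1 of the other libraries left out, 7 or 8 passed. The chaperone gene Hsp90b1 was at 1127, 560 and 1165 in F1-L and 227, 324 and 404 in B6-O (log2 fold change 1.54, limma adjusted p = 0.0320), a call lost without F1-L replicate 1 or 3 or B6-O replicate 1 or 2, and the oxidoreductase gene Txndc5 was at 752 to 1590 and 117 to 297 (log2 fold change 2.93). Immunoglobulin reads, plasma cell genes and folding genes were highest within B6-O in replicate 3, and their part in the other differences was not tested.

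NK cell genes formed the other list with nearly all members past the thresholds. Of 14 tested, 12 rose and 0 fell, with a median log2 fold change of 2.70, and the summed value was 1057, 515 and 436 in F1-L and 58.7, 34.8 and 119 in B6-O. Ncr1, the activating receptor NKp46, was at 124, 64.3 and 43.6 in F1-L and 4.39, 2.75 and 6.79 in B6-O (log2 fold change 3.72, SE 0.42, limma adjusted p = 0.00216). Gzma, a granzyme, was at 35.1, 23.6 and 33.1 against 1.28, 0.758 and 1.24 (log2 fold change 3.91), and Eomes, a transcription factor of NK and memory T cells, was at 22.5 to 61.3 against 0.758 to 1.74 (log2 fold change 3.98). At all 14 every F1-L library lay above every B6-O library, beside 17.5% of all tested genes. F1-L replicate 1 was the highest at Ncr1, Gzma and Eomes. With any 1 library left out, 9 to 13 of the 14 passed. Part of the list lies in the NK receptor cluster described above, but Ncr1, Gzma and Eomes do not.

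Of 20 T cell markers 3 rose, 15% beside 11.6% of all genes past the thresholds. They were Tcf7, a transcription factor of early T cells (log2 fold change 1.88), Cd3g (2.29) and Cd4 (0.95), and 10 rose without B6-O replicate 3. With 1 of the other libraries left out, 0 or 1 of them passed. Cd3e, a defining chain of the T cell receptor complex, was at 14.2, 3.70 and 4.13 in F1-L and 0.965, 1.04 and 2.14 in B6-O (limma adjusted p = 0.0693). It passed in 3 of 19 alternatives, DESeq2 and edgeR's likelihood ratio test among them. Of 24 B lymphoid genes Cd79a (2.07), Bank1 (1.37) and Blnk (1.25) rose and Dntt fell, and without B6-O replicate 3 the counts were 7 and 3, whereas 2 passed with 1 of the other libraries left out. Of 12 plasmacytoid dendritic cell genes tested 0 passed in limma, edgeR and DESeq2, and without B6-O replicate 3 there was 1 higher and 1 lower. In limma 1 of the 12 had an unadjusted p below 0.05, beside 27.5% of all tested genes.

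**Figure D3:**
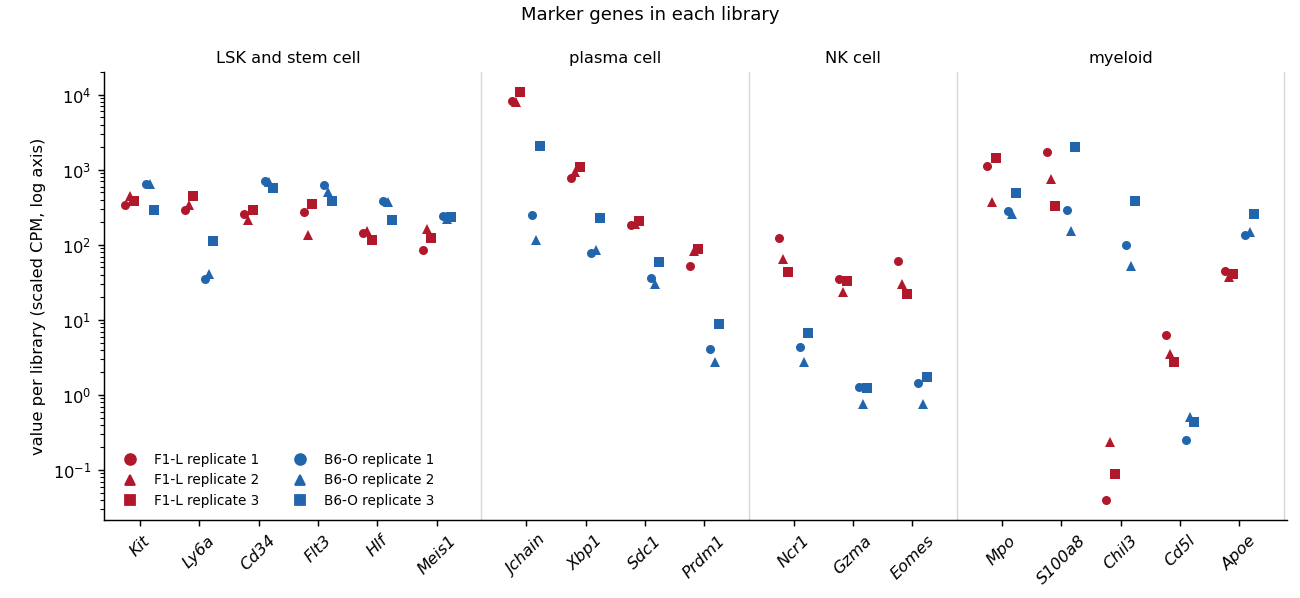
Each symbol is a library, with the value in scaled CPM on a log axis for 18 marker genes, F1-L in red and B6-O in blue, and symbol shapes for the replicates. Plasma cell and NK cell genes lie higher in every F1-L library, Cd34 lies lower in every one, and B6-O replicate 3 (blue squares) is the highest of its group for Jchain, S100a8 and Chil3.

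Of 20 myeloid transcription factors and growth factor receptors, 1 rose and 1 fell, a share of 10% beside 11.6% over all genes. Csf2rb, the shared receptor chain for GM-CSF, IL-3 and IL-5, was at 111, 89.8 and 140 in F1-L and 49.9, 52.3 and 57.2 in B6-O (log2 fold change 1.06, limma adjusted p = 0.0102), a call lost without F1-L replicate 1 or 3 or B6-O replicate 1. Il1r1, the IL-1 receptor, was at 24, 20.3 and 30.6 against 85.7, 92.1 and 41.2 (log2 fold change −1.45, limma adjusted p = 0.0298), a call lost without any 1 library other than B6-O replicate 3. Cebpa, which specifies granulocyte and macrophage progenitors, was at 91.8, 99.6 and 64.1 in F1-L and 48.7, 48.6 and 57.1 in B6-O, higher in every F1-L library. Its log2 fold change of 0.70 was past the fold threshold, but it did not pass after adjustment (limma adjusted p = 0.0563). Cebpa did pass in 6 of 20 alternatives, among them DESeq2, edgeR's likelihood ratio test and limma without B6-O replicate 3. Without B6-O replicate 3, 4 of these 20 genes were higher and 2 lower, and with 1 of the other libraries left out 0 to 2 passed. Of 12 primary granule genes 0 passed in limma and in the quasi-likelihood test, whereas DESeq2 called 3 higher and 4 rose without B6-O replicate 3. With 1 of the other libraries left out, 0 or 1 passed. An unadjusted p below 0.05 in limma was seen at 7 of the 12, beside 27.5% of all tested genes. Mpo, the myeloperoxidase of primary granules, was at 1115, 369 and 1447 in F1-L and 285, 258 and 488 in B6-O (limma adjusted p = 0.148), and Elane, neutrophil elastase, was at 90.4 to 245 against 27.1 to 129 (limma adjusted p = 0.130). The late granule gene S100a8 was at 1741, 759 and 330 in F1-L and 295, 151 and 1991 in B6-O, where replicate 3 exceeded all F1-L libraries.

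Of 19 monocyte and macrophage markers tested 7 rose and 1 fell, with a median log2 fold change of 1.64, and 10 rose and 1 fell without B6-O replicate 3. With 1 of the other libraries left out, 3 or 4 passed. Ly6c2, a surface antigen of inflammatory monocytes, was at 234, 302 and 405 in F1-L and 26.9, 15.7 and 122 in B6-O (log2 fold change 2.99, limma adjusted p = 0.0323), a call lost without any 1 library other than B6-O replicate 3. The receptor tyrosine kinase gene Axl was at 29.1, 38.6 and 36.8 against 9.71, 9.66 and 11.2 (log2 fold change 1.67, limma adjusted p = 0.00142). C1qa, a chain of complement C1q (log2 fold change 1.77), the mannose receptor gene Mrc1 (2.47), the chemokine receptor gene Ccr2 (1.88), Ctss (2.10) and Cd5l (1.84) rose as well. Apoe, the apolipoprotein of macrophages, went the other way, at 45.2, 37.8 and 41.2 in F1-L and 136, 149 and 259 in B6-O (log2 fold change −2.05, SE 0.24, limma adjusted p = 0.00269). The summed value of the list was 719 to 1071 in F1-L and 267 to 632 in B6-O, with B6-O replicate 3 the highest of its group. The sort excluded cells with CD11b, Gr-1 or CD16/32, which monocytes and macrophages carry, and the source of these reads was not tested.

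Of the remaining lineages, 16.7% to 23.5% of the genes tested passed, beside 11.6% over all genes. Of 17 erythroid genes Rhag (log2 fold change 1.66), Car1 (1.93) and Ermap (1.73) rose and Hba-a2 fell, 10 rose without B6-O replicate 3, and 0 to 2 passed with 1 of the other libraries left out. The copy of Hba-a2, Hba-a1, did not pass (log2 fold change 0.16). Of 18 megakaryocyte and platelet genes Itgb3 (0.69) and F2r (1.70) rose and Itga2b, the platelet integrin chain also found on early progenitors, fell (−1.23), whereas 1 rose and 1 fell without B6-O replicate 3 and 0 or 1 passed with another library left out. Il5ra, the IL-5 receptor chain, was at 19.3, 27.6 and 29.7 in F1-L and 1.15, 0.789 and 4.15 in B6-O (log2 fold change 3.27, limma adjusted p = 0.00316), and with Cyp11a1 it was 1 of 2 basophil, mast cell and eosinophil genes of 12 that rose, with 3 without B6-O replicate 3. Of 11 stromal and endothelial genes, Cdh5 rose (1.66) and Pdgfrb fell (−1.39).

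Of 43 interferon-stimulated genes tested, 2 rose and 3 fell, 11.6% in all and the same share as over all genes, with a median log2 fold change of −0.16. The nucleic acid sensor gene Zbp1 was at 36, 39.2 and 38.6 in F1-L and 9.49, 9.41 and 20.7 in B6-O (log2 fold change 1.54, limma adjusted p = 0.0175), and Herc6, a ligase for ISG15, rose by 0.87 on the log2 scale. Epsti1 (log2 fold change −0.60), Rtp4 (−0.78) and Oas1g (−0.77) fell. Isg15, the ubiquitin-like product of interferon signalling, was at 5.97, 7.79 and 9.48 in F1-L and 6.94, 8.49 and 18.2 in B6-O and did not pass (limma adjusted p = 0.506). The summed value of the list was 1730 to 1885 in F1-L and 1770 to 1917 in B6-O, so the groups overlapped. Without B6-O replicate 3, 2 rose and 4 fell, and with 1 of the other libraries left out 0 passed. Among 18 guanylate-binding proteins and immunity-related GTPases, Gbp3 (0.71) and Gbp9 (1.78) rose and Tgtp1 (−0.76) and Tgtp2 (−2.60) fell, and 3 rose and 2 fell without B6-O replicate 3. With 1 of the other libraries left out, 2 or 3 of the 18 passed. Of 8 Ly6 genes, small surface proteins related to Sca-1, 5 rose, and the median log2 fold change of the list was 1.98. Of the 8, 6 rose without B6-O replicate 3, and 2 or 3 passed with 1 of the other libraries left out. Of 13 Ifi200 genes tested 4 rose and 1 fell, 6 rose and 2 fell without B6-O replicate 3, and 0 to 3 passed with 1 of the other libraries left out.

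Of 23 Toll-like and inflammasome receptor genes 5 passed (21.7%), and of 14 SLAM family and Fc receptor genes 3 (21.4%), beside 11.6% over all genes. Among the first, Tlr8 (log2 fold change 1.95), Tlr6 (0.94), Nlrp1b (1.39) and Naip2 (0.67) rose and Naip5 fell (−0.64), whereas 6 rose and 0 fell without B6-O replicate 3 and 0 or 1 passed with 1 of the other libraries left out. In the SLAM and Fc receptor list Slamf6 (2.00), Slamf7 (3.33) and Slamf9 (3.63) rose, 5 rose without B6-O replicate 3, and 1 to 3 with another library left out. Slamf6, a receptor of lymphocytes, was at 32.8, 15.7 and 16.2 in F1-L and 3.95, 4.04 and 5.08 in B6-O. Of 8 Schlafen genes Slfn8 rose (1.09), a call lost without any 1 library other than B6-O replicate 3, and 2 rose without that library. Of 20 immediate early genes, which cells switch on within minutes of a stimulus or of handling, 0 passed in limma, DESeq2 called 4 higher and 8 rose without B6-O replicate 3. With 1 of the other libraries left out, 0 passed. An unadjusted p below 0.05 in limma was seen at 5 of the 20, beside 27.5% of all tested genes. Of 18 NF-kB and inflammatory cytokine genes 0 passed in limma, edgeR and DESeq2, 5 rose without B6-O replicate 3, and 0 passed with 1 of the other libraries left out. In limma 5 of the 18 had an unadjusted p below 0.05, beside the same 27.5% of all tested genes.

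Of 24 S phase genes 4 fell (16.7%, beside 3.75% over all genes), among them Chaf1b (log2 fold change −1.11), Gins1 (−0.69) and Mcm7 (−0.68), and 0 rose, and the median was −0.52. At 19 of the 24 every F1-L library lay below every B6-O library, beside 20% of all tested genes. Chaf1b, a histone chaperone of replication, was at 32.4, 54.9 and 44.8 in F1-L and 86.4, 91 and 106 in B6-O (limma adjusted p = 0.0148), a call lost without F1-L replicate 3 or B6-O replicate 1 or 2. Without B6-O replicate 3, 7 fell, and with 1 of the other libraries left out 0 to 2 passed. Of 24 genes of G2 and M phase Ccnb2 fell (−0.78), with a median of −0.46, 3 fell without B6-O replicate 3, and 0 to 2 passed with 1 of the other libraries left out. Of 23 G1 genes Cdk4 (−0.68) and Cdkn2c (−0.72) fell, whereas 1 rose and 3 fell without B6-O replicate 3 and 0 passed with 1 of the other libraries left out. Of 20 DNA damage response genes Trp53inp1 rose (1.96), 2 rose and 2 fell without B6-O replicate 3, and 1 passed with 1 of the other libraries left out.

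Of 20 genes of cholesterol synthesis and lipid transport 6 fell (30%, beside 3.75% over all genes) and 0 rose, whereas 3 had a positive and 17 a negative fold change. Scd2, a desaturase of fatty acids, was at 144, 197 and 164 in F1-L and 376, 453 and 268 in B6-O (log2 fold change −1.09, SE 0.22, limma adjusted p = 0.0228), a call that it and Srebf2 lost without any 1 library other than B6-O replicate 3. The sterol-responsive transcription factor Srebf2 (−0.66) and its regulator Insig1 (−0.73) fell as well, and so did Apoe, described above. At 10 of the 20 every F1-L library lay below every B6-O library, beside 20% of all tested genes. At 1 every F1-L library lay above, beside 17.5% of all tested genes. Without B6-O replicate 3, 1 rose and 7 fell, and with 1 of the other libraries left out 2 to 5 passed. Of 17 glycolysis genes Pfkp rose (0.67) and Gpi1 (−0.85) and Pgk1 (−0.64) fell, 1 rose and 1 fell without B6-O replicate 3, and 0 or 1 passed with 1 of the other libraries left out.

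**Figure D4:**
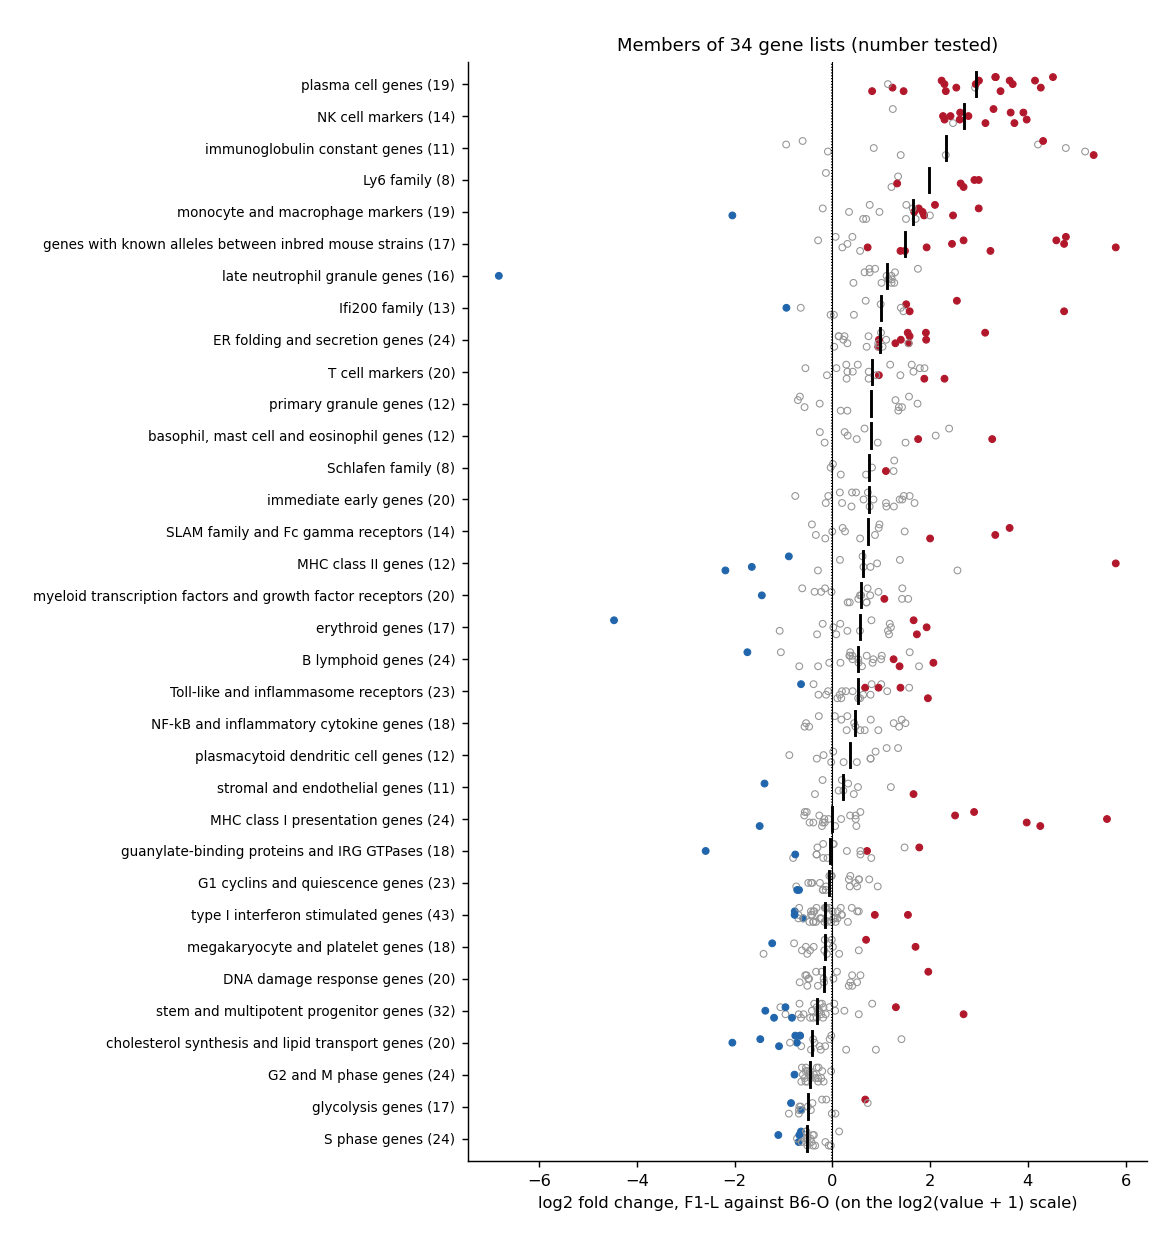
Each point is a tested member of 1 of 34 gene lists, with its log2 fold change of F1-L against B6-O on the x axis, filled red or blue where it passed the thresholds higher or lower and open where it did not. Black bars are list medians, from 2.93 for plasma cell genes to −0.52 for S phase genes, and the dotted line is the median of all genes at −0.03.

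The same strains at 12 weeks, before disease, were set beside the older mice. F1-P against B6-Y gave 2331 of 14380 genes past the same thresholds (16.2%), with 1442 higher (10%) and 889 lower (6.18%) in F1-P and an unadjusted p below 0.05 at 4500 genes (31.3%), in samples that the older comparison does not use. Of the 1667 genes called at 28 to 36 weeks, 1229 were also called at 12 weeks, 73.7% of the older calls and 52.7% of the younger ones. Their direction was the same in 1228, and of 1612 older calls tested at both ages 1599 had the same sign. The log2 fold change at 28 to 36 and at 12 weeks was 5.41 and 5.33 for Pld5, 4.74 and 4.86 for Ifi202b, −5.37 and −5.56 for Trim12a and 6.48 and 6.35 for Gm15772. It was 2.68 and 3.53 for Ly6a, −1.37 and −1.28 for Cd34, 3.00 and 3.25 for Xbp1 and 3.72 and 3.94 for Ncr1. The median over plasma cell genes was 2.93 and 2.95, and over NK cell markers 2.70 and 2.68.

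The difference of the 2 strain differences was then tested on all 12 LSK libraries. In limma 0 of 15084 genes passed, and 591 (3.92%) had an unadjusted p below 0.05. edgeR's quasi-likelihood test on the recovered reads also called 0, whereas its likelihood ratio test called 10 and DESeq2 called 29, the 10 among them. Of the 1667 older calls 438 were not called at 12 weeks, but 61 of these fell below an unadjusted p of 0.05 in the test of the difference, so a call at 1 age alone does not show that the ages differ. Cd5l, a scavenger receptor-like protein of macrophages, had the smallest p and was the only gene called in opposite directions. It was at 6.33, 3.5 and 2.78 in F1-L and 0.249, 0.505 and 0.435 in B6-O, with means of 0.414 in F1-P and 1.86 in B6-Y (difference of log2 fold changes 2.80, limma adjusted p = 0.222). DESeq2 and the likelihood ratio test called it, with Cebpa, Slamf6, Siglec1 and Csf2rb2 among the others, and these 5 genes and Matn4 were chosen after their values were seen. For Cebpa the mean was 25.3 in F1-P and 50.2 in B6-Y, so its log2 fold change was −0.99 at 12 weeks against 0.70 at 28 to 36 weeks. Matn4, a matrix protein gene and 1 of the 3 that DESeq2 called lower, was at 0.160, 0.676 and 0.270 in F1-L and 3.61, 6.25 and 9.66 in B6-O, with means of 0.345 in F1-P and 0.360 in B6-Y.

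In 6 lists 30% or more of the members had an unadjusted p below 0.05 in this test, beside 3.92% over all genes. Among 43 interferon-stimulated genes there were 18, all with a more positive strain difference at 28 to 36 weeks, and the median log2 fold change was −0.16 in the older mice and −0.68 in the younger ones, where 1 rose and 20 fell. Among 19 monocyte and macrophage markers there were 11 and among 20 myeloid transcription factors and receptors 9, again all in the positive direction. Of 12 plasmacytoid dendritic cell genes there were 5 and of 13 Ifi200 genes 4, also positive. Among 32 stem and progenitor genes there were 0, and among 24 S phase genes there was 1. Cholesterol genes went the other way, with 6 of 20 below 0.05, all with a more negative strain difference in the older mice. For Scd2 the log2 fold change was −1.09 at 28 to 36 weeks and −0.28 at 12 weeks. None of these passed the adjustment over all genes in limma, and genes of a list are not independent of each other.

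**Figure D5:**
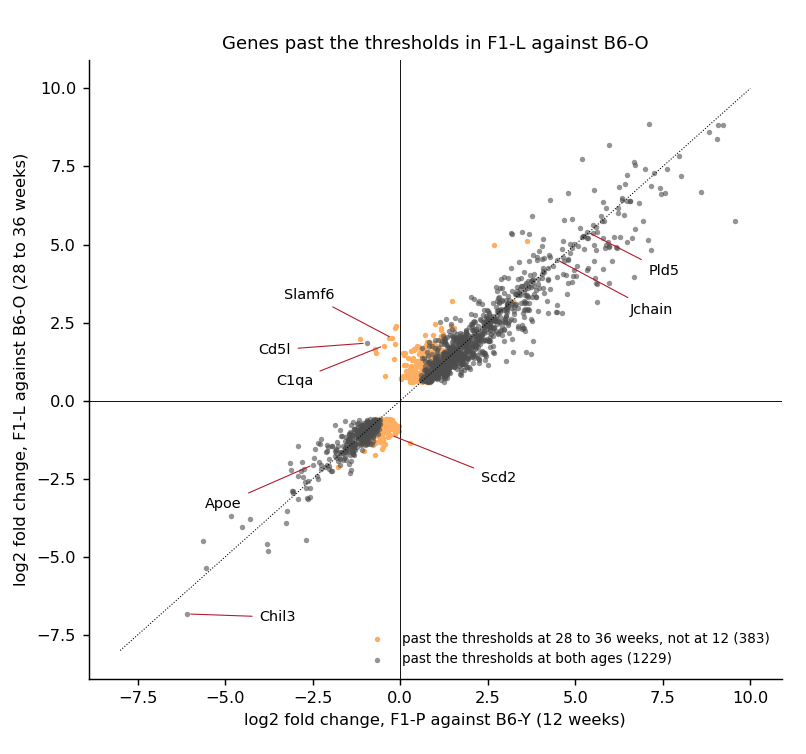
The 1612 genes past the thresholds in F1-L against B6-O that were also tested at 12 weeks are plotted by their log2 fold change in F1-P against B6-Y (x axis) and in F1-L against B6-O (y axis), grey where both comparisons called them (1229) and orange where only the older one did (383). The dotted line marks equal change, 1599 of the points have the same sign at both ages, and Cd5l is the only grey point whose signs differ.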

How the data were processed

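LSK were sorted from bone marrow of 12 NZBW/F1 and C57BL/6 samples, 6 of them compared here, and their RNA was sequenced as single-end reads. The authors used STAR 2.6 for alignment to mm10 (GRCm38), HTSeq for counting and edgeR for scaling. The signal values deposited by the authors are reads divided by a scaled library size, since columns summed to 832403 to 1387186 and steps between low values gave whole reads for 100.0% of values within 0.1 reads. The table holds 19780 genes, of which 19770 were matched to GENCODE M21, and 0 columns were left unused. The CMP table was not used.

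Genes at 1 or more in at least 3 samples were tested with limma 3.58.1 (R 4.3.3) on log2(value + 1) with a trended prior and Benjamini-Hochberg adjustment, with the false discovery rate set to 0.05 and a fold above 1.5. The difference of the strain differences was fitted on all 12 LSK libraries. On the recovered reads edgeR 4.0.16 called 1552 genes by the quasi-likelihood test and 2193 by the likelihood ratio test, and DESeq2 1.42.0 called 2279. Tables and figures were made with Python 3.11.15. In tests on simulated data for F1-L against B6-O, limma recovered 171 of 198 genes changed 4-fold and 0 of 199 changed 2-fold. For the difference of strain differences it recovered 128 of 197 and 0 of 198. The simulations changed far fewer genes than the 1667 called in the data, and the adjustment is stricter where fewer genes change. They do not show which folds could be called in the data, where calls below 2-fold were made.

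Named genes are, in each direction, the 10 protein-coding calls that changed most among those with separate groups and a mean of at least 5 over the 6 samples, the 5 most abundant calls of at least 2-fold outside immunoglobulin genes, and the 5 most abundant genes read in 1 group only, beside members of the 34 lists. Calls of the test between ages would also have been named, but there were 0. Members, lists and this rule were chosen with earlier results of these data known. Some members are counted but not reported by name here.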

Additional observations from a re-analysis of the deposited data

How the results depend on the processing

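The count of 1667 genes called in F1-L against B6-O stayed within 1.5 times under the other pseudocounts, scalings and tests, and fell to 978 (638 higher and 340 lower) when a mean of at least 5 was asked for, where fewer genes are tested. With 1 library left out the count ranged from 448 to 2285, highest without B6-O replicate 3, that of F1-P against B6-Y from 927 to 2229, and that of the difference between ages from 0 to 1, where the genes were Ighv3-3 without F1-L replicate 1, Mpeg1 without F1-L replicate 2 and Lbp without F1-P replicate 3. The difference between ages gave 10 calls by the likelihood ratio test and 29 by DESeq2. Genes read in 1 group only numbered 18 with 0 reads in the other group and 26 with 5 or more in each library. The log2 fold change of S100a8 ranged from -0.016 without B6-O replicate 2 to 1.84 without B6-O replicate 3. Of 181 called genes recomputed under 20 alternatives, 181 kept their direction and 92 their call in all of them. Causes were not tested.

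Same-numbered F1-L and B6-O libraries deviated together with r of 0.0029, 0.0606 and 0.0499, and pairs with different numbers gave −0.0905 to 0.0839. These values cannot show whether libraries with the same number shared a batch, and the main test used no pairing. With the replicate as a block 1380, 2787 and 0 genes were called in the 3 comparisons. Low genes are limited by the non-immunoglobulin depth of F1-L, and 1590 genes were called after thinning to an equal number of such reads, an alternative added after seeing the data.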
